A study of Sus scrofa with 18 samples.

Results

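Among the 24358 genes listed for each library, 63 carry a symbol of the mitochondrial ribosomal protein family, and these 63 genes are described here in all 18 libraries. They were chosen by symbol alone, as every gene whose symbol begins with MRPL or MRPS followed by a number; the rule uses no expression value, although it was set with earlier results of these data known. By symbol, 39 are MRPL and 24 are MRPS. By the place of the protein in the mammalian mitochondrial ribosome, 41 belong to the large subunit and 21 to the small subunit, because MRPS18A and MRPS30 sit in the large subunit despite their symbols. The last, MRPS36, is now assigned to the 2-oxoglutarate dehydrogenase complex and not to the ribosome. In all, 37 of the ribosomal proteins have a bacterial counterpart and the other 25 are particular to mitochondria. A further 11 rows have no symbol but are described as mitochondrial ribosomal proteins, and they were kept outside the 63 and set beside them.

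The mitochondrial ribosome makes the core subunits of the respiratory chain that mitochondrial DNA encodes. Its RNAs come from mitochondrial DNA, whereas its proteins come from nuclear genes, are made in the cytosol and are imported. An early embryo carries a large stock of maternal mitochondria and maternal RNA, and in the pig the embryonic genome takes over around the 4-cell stage. The blastocyst, with its fluid-pumping outer epithelium, is known for a higher oxidative metabolism than the cleavage stages.

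The libraries came from cloned pig embryos, made by transferring a donor cell from ear tissue of Diannan miniature pigs into an enucleated oocyte. They were fused and activated by electric pulses and then cultured with cytochalasin B, and the study counts its times from chemical activation. The zygotes were either vitrified, warmed and cultured (vitrified groups) or cultured without vitrification (fresh groups, the controls). There were 6 groups of 3 libraries each, namely fresh and vitrified 2-cells at 24 h after activation with 4 embryos per library, fresh and vitrified 4-cells at 48 h with 2 embryos, and fresh and vitrified blastocysts at 144 h with 1 embryo. All groups are cloned embryos, and the vitrified groups hold only embryos that reached the stage after warming. The number of cells per blastocyst is not given, so fewer cells and less RNA per cell cannot be told apart there. At every stage the levels are scaled to the library, so they give neither the number of cells nor the RNA per cell. Expression is given in FPKM, a fragment count scaled by the length of the transcript and by the size of the library, which allows levels of different genes to be compared. The depth behind a value is unknown, and its precision is known only from the spread between the 3 libraries.

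Marker levels set the blastocysts apart from both earlier stages, whereas 2-cells and 4-cells overlapped. The summed level of 6 maternal markers was 997 to 2503 FPKM in 2-cells, 978 to 1594 FPKM in 4-cells and 1.21 to 5.68 FPKM in blastocysts, and that of 6 blastocyst epithelium markers was 1.196 to 8.53, 5.05 to 176 and 1965 to 3965 FPKM. In any library, cumulus cell markers summed to at most 4.80 FPKM and fibroblast markers to at most 7.84 FPKM. The sum of FPKM over all genes was 441445 to 496370 in 2-cells, 529172 to 592355 in 4-cells and 640376 to 731543 in blastocysts. One library stood apart, vitrified 4-cells replicate 3, whose mean correlation with the other 5 libraries of its stage was 0.763 across all genes against 0.869 to 0.892 for those 5.

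The 63 genes together stood highest in blastocysts. Their summed level was 2457 to 2714 FPKM in the 6 libraries of 2-cells and 5009 to 5403 FPKM in the 6 libraries of blastocysts. It was 1867, 1973 and 3225 FPKM in fresh 4-cells and 1839.9, 2248 and 3486 FPKM in vitrified 4-cells, so replicate 3 was the highest of both treatments. As a share of all FPKM, the 63 genes held 0.515% to 0.571% in 2-cells, 0.342% to 0.380% in replicates 1 and 2 of the 4-cells, 0.610% and 0.638% in replicate 3, and 0.704% to 0.809% in blastocysts. The median gene of a library stood at 11.3 to 18.5 FPKM in 2-cells, 10.8 to 27.7 FPKM in 4-cells and 41.8 to 55.2 FPKM in blastocysts, so blastocysts did not overlap with either earlier stage.

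**Figure D1:**
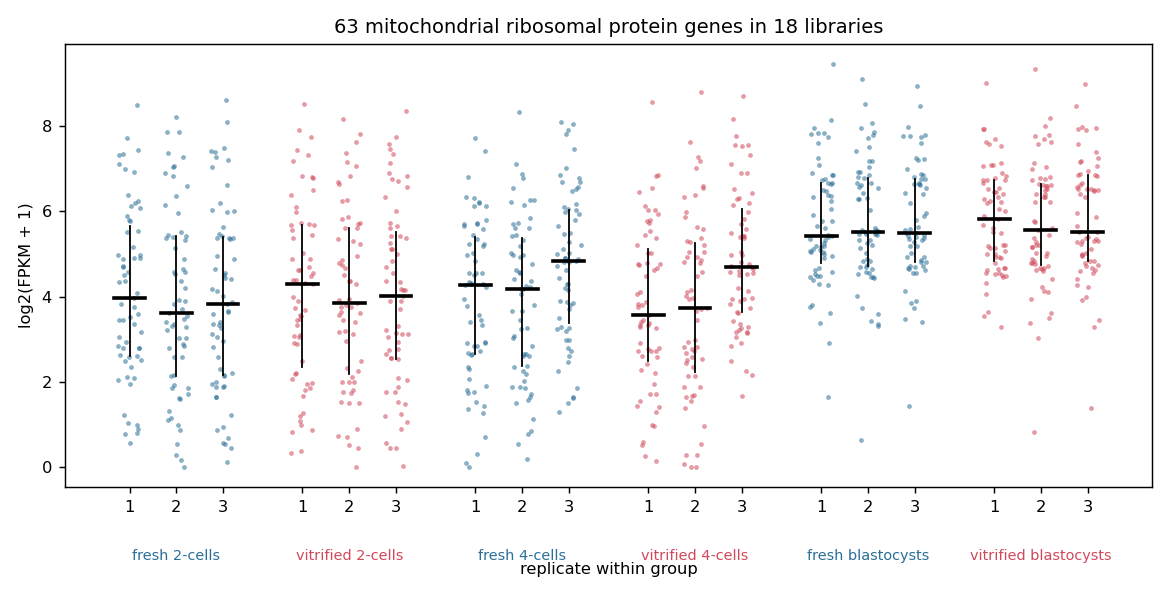
Each point is the level of 1 of the 63 genes in 1 library, as log2(FPKM + 1), for the 3 replicates of the 6 groups (blue for fresh, red for vitrified), with the median as a thick bar and the quartiles as a thin line. The medians of all 6 blastocyst libraries (41.8 to 55.2 FPKM) lie above those of every 2-cell and 4-cell library, and the points spread less in blastocysts.

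The genes differed widely in level, and this spread was narrower in blastocysts. In fresh 2-cells the group means ran from 0.307 FPKM for MRPL28 to 288 FPKM for MRPL11, a 938-fold range, and 26 of the 63 genes had a mean under 10 FPKM. In fresh blastocysts 3 genes had a mean under 10 FPKM and 19 had a mean of at least 100 FPKM. On the log2 scale, the interquartile range of the levels of the 63 genes was 2.98 to 3.42 in the 2-cell libraries, 2.44 to 3.02 in the 4-cell libraries and 1.89 to 2.07 in the blastocyst libraries. The 62 cytosolic ribosomal protein genes, listed for comparison, had a range of 3.20 to 3.69 in 2-cells and 1.90 to 2.04 in blastocysts. The order of the 63 genes by group mean was largely kept from fresh 2-cells to fresh 4-cells (Spearman's rho = 0.87) and much less so from fresh 4-cells to fresh blastocysts (rho = 0.39), whereas fresh and vitrified groups of the same stage had nearly the same order (rho = 0.97 to 0.99). These correlations run across genes measured in the same libraries and are given as descriptions.

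**Figure D2:**
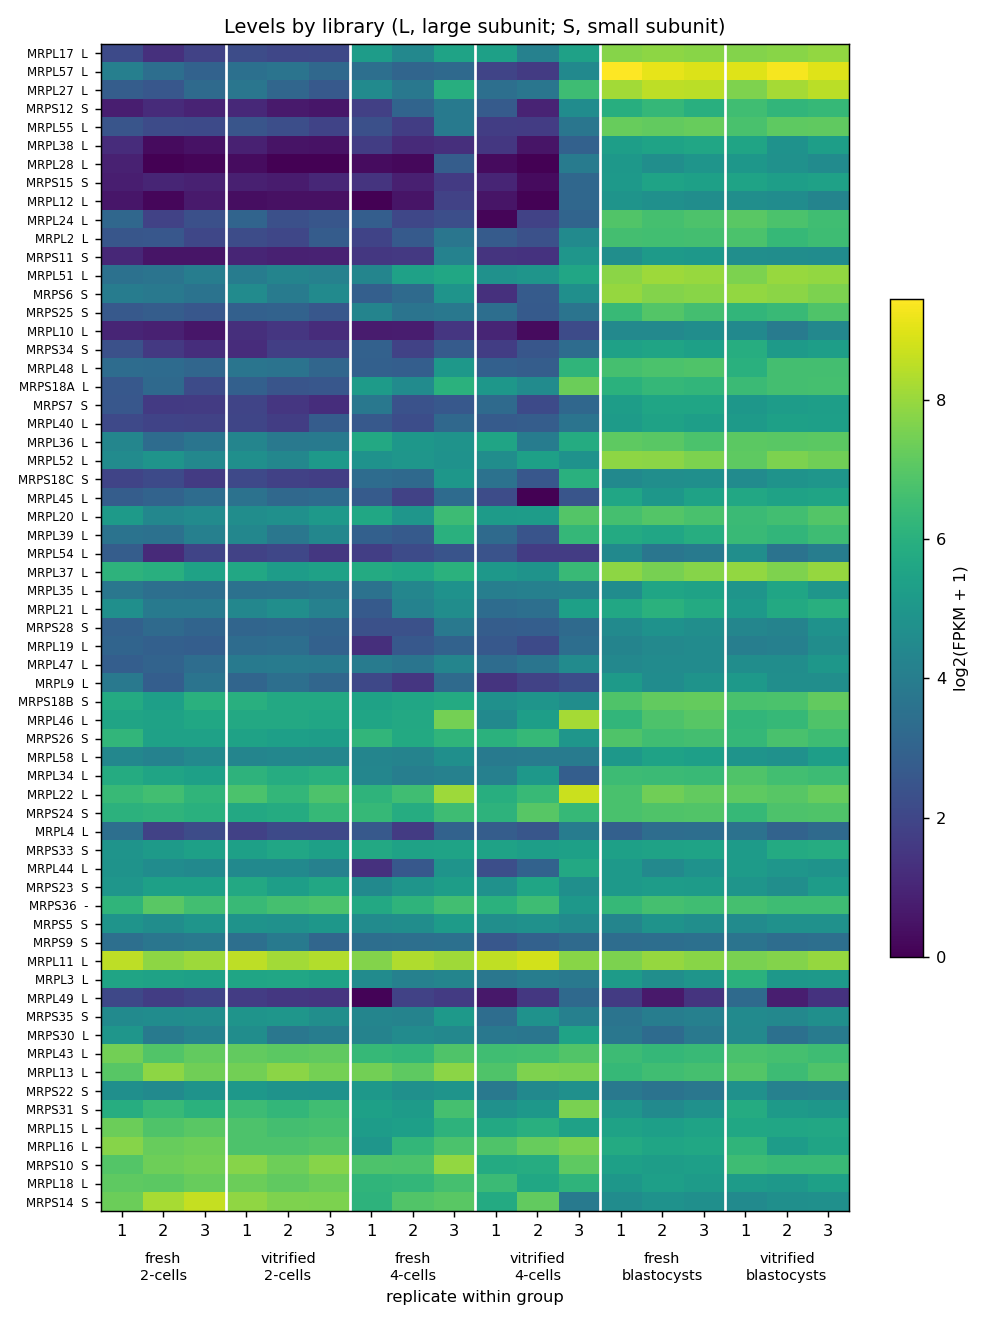
Rows are the 63 genes (L, large subunit, S, small subunit, and a dash for MRPS36), ordered by the difference between the means of fresh blastocysts and fresh 2-cells, columns are the 18 libraries, and the colour is log2(FPKM + 1). The upper rows are dark in 2-cells and most 4-cell libraries and bright in all 6 blastocyst libraries, and the lowest rows, such as MRPS14, go the other way.

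Among the 63 genes, the highest mean level over all 18 libraries was that of MRPL11 (ENSSSCG00000012943). Its protein sits at the base of the stalk where translation factors bind. MRPL11 held 363, 232 and 271 FPKM in fresh 2-cells, 209, 322 and 272 FPKM in fresh 4-cells and 193, 248 and 221 FPKM in fresh blastocysts, and the stages overlapped. The next in mean level was MRPL57 (ENSSSCG00000031280), a large-subunit protein particular to mitochondria, which reached its rank through blastocysts alone. MRPL13, MRPL22 and MRPS14, all with bacterial counterparts, followed with means over the 18 libraries of 151, 132 and 119 FPKM. Their levels overlapped across many libraries, so the order among these neighbours is not beyond the spread. At the low end stood MRPL49, MRPL4 and MRPL54, with means over the 18 libraries of 2.51, 6.48 and 7.45 FPKM. MRPL49 was the lowest of the 63 genes in both blastocyst groups. It held 2.14, 0.555 and 1.69 FPKM in fresh and 8.75, 0.752 and 1.62 FPKM in vitrified blastocysts.

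The first developmental comparison was fresh 4-cells against fresh 2-cells, the interval in which the embryonic genome of the pig becomes active. Differences are given as the difference of mean log2(FPKM + 1), later minus earlier stage, ± SE, from limma over all 18 libraries with 3 libraries per group. The stages stand in separate tables, and the FPKM of each library was taken to be scaled within that library. A gene was called when its Benjamini-Hochberg adjusted p was under 0.05 and its difference beyond 1 on the log2 scale. Of the 63 genes 9 were called, 5 higher and 4 lower, against 8.52% of all 11361 genes tested (4.81% higher and 3.71% lower), and the median difference was 0.10 for the 63 genes and -0.02 for all genes. By subunit, 8 of the 9 belonged to the large subunit, of which 41 genes were tested, and 1 of the 9 to the small subunit, of which 21 were tested.

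The steepest rise in this step was that of MRPL17, whose bacterial counterpart lies near the exit of the peptide tunnel. MRPL17 held 3.33, 1.499 and 2.69 FPKM in fresh 2-cells and 36.5, 20.3 and 43.3 FPKM in fresh 4-cells, an increase of 3.27 ± 0.35, adjusted p = 0.000117. All 3 later libraries were above all 3 earlier ones, and the level was 214, 232 and 216 FPKM in fresh blastocysts, higher again by 2.75 ± 0.35, adjusted p = 2.10e-06. The other genes that rose in this step were MRPS18A (2.61 ± 0.53, adjusted p = 0.00595), MRPL36 (1.41 ± 0.40, adjusted p = 0.0353), MRPL51 (1.41 ± 0.33, adjusted p = 0.0122) and MRPS25 (1.24 ± 0.29, adjusted p = 0.0139). Both MRPL51 and MRPS25 are particular to mitochondria, and MRPL36 is a very small protein with a bacterial counterpart. MRPS18C and MRPS12, which lies at the decoding centre, had larger differences than some of these, 1.95 ± 0.61, adjusted p = 0.0527 and 1.95 ± 0.63, adjusted p = 0.0634, but did not pass the adjusted test. In the fit with a replicate block 11 genes were called, the 9 and, both higher, MRPS18C (adjusted p = 0.0404) and MRPL27 (1.89, adjusted p = 0.0497).

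The 4 genes that fell in this step all belong to the large subunit. MRPL15 went from 159, 113 and 129.8 FPKM to 36.5, 39.3 and 67.8 FPKM, a difference of -1.51 ± 0.26, adjusted p = 0.00239. MRPL16, the counterpart of a bacterial protein that helps position transfer RNA, went from 211, 154 and 166 FPKM to 30.7, 76.3 and 109 FPKM, a difference of -1.45 ± 0.38, adjusted p = 0.0220. In both genes the fresh 4-cell libraries lay wholly below the fresh 2-cell libraries. MRPL34 and MRPL3 fell by similar amounts (-1.38 ± 0.38, adjusted p = 0.0317 and -1.10 ± 0.27, adjusted p = 0.0178). The differences of MRPL44 (-1.70 ± 0.75, adjusted p = 0.174) and MRPS14 (-1.38 ± 0.56, adjusted p = 0.132) were of similar size but were not called, with MRPL44 at 1.57, 5.11 and 28.5 FPKM in fresh 4-cells. All 9 calls held under both other scalings tried, but the count moved with single libraries. It was 4 without fresh 2-cells replicate 1 (4.11% of all genes) and 4 without fresh 2-cells replicate 3 (4.54%). Without vitrified 4-cells replicate 3 it was 17 (13.0%). It was 15 (13.9%) without either replicate 3 of the 4-cells, an alternative chosen after the data were seen.

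Between fresh 4-cells and fresh blastocysts most of the family rose. Of the 63 genes 38 were called, 34 higher and 4 lower, and the median difference was 1.78. The filter over the 18 libraries also admits genes through blastocysts. MRPL28, with 2-cell means of 0.307 (fresh) and 0.0862 FPKM (vitrified), reached it only with blastocyst libraries, where it was high. Such a gene could enter the count only as a rise. Over all 11361 genes tested, 62.5% were called, 23.9% higher and 38.6% lower, with a median difference of -0.56, so calls among the 63 genes were mostly upward in a step in which most calls over all genes were downward. The direction of the background depends on the scaling, since 3728 genes were called higher and 3385 lower after scaling by the median ratio and 3477 higher and 3462 lower after quantile normalization, against 2712 higher and 4385 lower with FPKM as deposited. Under the same 2 scalings 45 and 39 of the 63 genes were higher and 1 and 4 lower, and all 34 genes that rose with FPKM as deposited were higher under both. In the large subunit 25 of 41 genes were higher and 1 lower, with a median difference of 1.90, and in the small subunit 9 of 21 were higher and 3 lower, with a median of 0.65, and whether the subunits differ was not tested. Genes with a bacterial counterpart (20 of 37 higher, median 1.47) and genes particular to mitochondria (14 of 25 higher, median 1.88) both rose in more than 1 gene of 2.

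**Figure D3:**
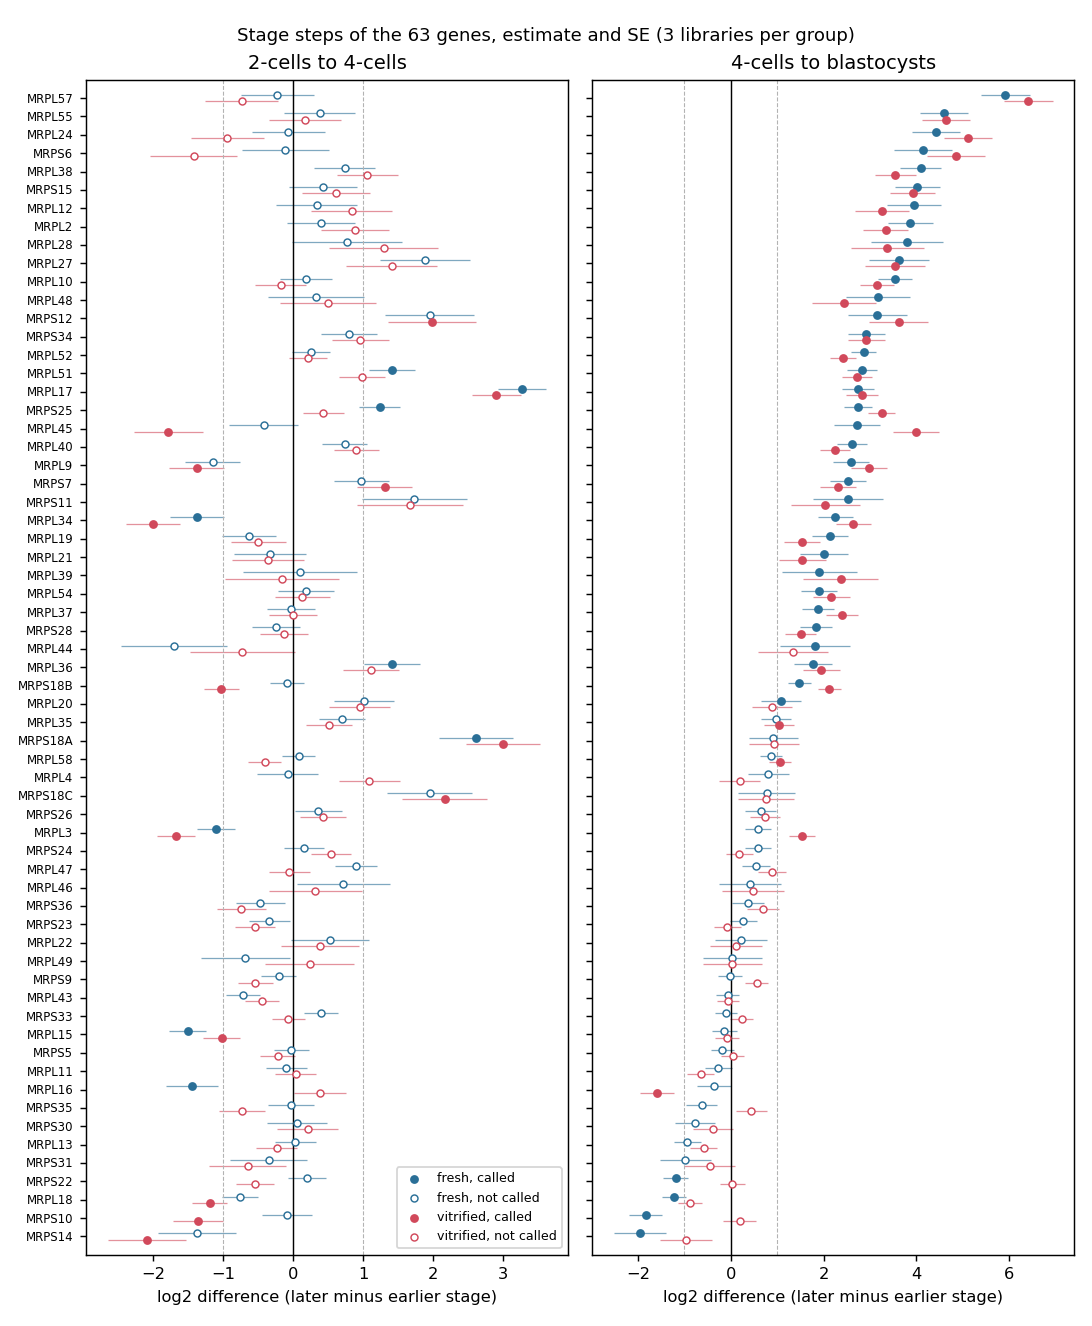
Each row is 1 of the 63 genes, ordered by the fresh step from 4-cells to blastocysts, with the log2 difference and its SE from 2-cells to 4-cells on the left and from 4-cells to blastocysts on the right (blue for fresh, red for vitrified, filled for genes that were called, dashed lines at -1 and 1). On the right most points lie above 0, up to 5.91 in fresh and 6.41 in vitrified embryos for MRPL57, whereas on the left the points scatter around 0.

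The 3 largest rises into fresh blastocysts were those of large-subunit genes. MRPL57 held 6.76 to 15.9 FPKM in the 6 libraries of 2-cells and 2.13 to 21.7 FPKM in the 6 libraries of 4-cells. In blastocysts it held 701, 547 and 493 FPKM in fresh and 513, 644 and 508 FPKM in vitrified embryos. The difference in the fresh step was 5.91 ± 0.52, adjusted p = 3.48e-08, and MRPL57 became the most abundant of the 63 genes. MRPL55, another protein particular to mitochondria, went from 3.94, 2.28 and 13.8 FPKM to 151, 144 and 151 FPKM (4.59 ± 0.51, adjusted p = 5.14e-07). MRPL24, the counterpart of a bacterial protein at the tunnel exit that starts the folding of the large-subunit RNA, went from 6.15, 3.07 and 3.78 FPKM to 119, 100.4 and 111 FPKM (4.42 ± 0.52, adjusted p = 1.01e-06). In each of these 3 genes every fresh blastocyst library exceeded every fresh 4-cell library.

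The stalk of the large subunit, which recruits translation factors, shows how unevenly a single structure was represented before the blastocyst stage. Its base protein MRPL11 was abundant from the 2-cell stage on, whereas the genes of the stalk proteins MRPL10 and MRPL12 stood under 4 and under 8 FPKM in every 2-cell and 4-cell library. These genes were described as a structure after their values had been seen. MRPL10 held 0.974, 0.829 and 0.487 FPKM in fresh 2-cells, 0.631, 0.695 and 1.83 FPKM in fresh 4-cells and 21.1, 21.1 and 23.9 FPKM in fresh blastocysts, a rise in the second step of 3.53 ± 0.37, adjusted p = 2.38e-07. MRPL12, whose human protein also binds the mitochondrial RNA polymerase, was listed at 0.0001, 0.458 and 2.62 FPKM in fresh 4-cells, where 0.0001 stands for zero in the deposited tables, and at 28.8, 25.7 and 23.7 FPKM in fresh blastocysts. The mean FPKM of MRPL11 was thus 378 times that of MRPL10 in fresh 2-cells, whereas in fresh blastocysts the means were 220.5 and 22.0 FPKM.

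Several proteins particular to mitochondria were also low before the blastocyst. MRPL38, a protein of the central protuberance, held 2.31, 1.17 and 1.43 FPKM in fresh 4-cells and 38.8, 43.7 and 47.4 FPKM in fresh blastocysts (4.09 ± 0.44, adjusted p = 3.35e-07). MRPL45, which in mammals lies at the tunnel exit and anchors the ribosome to the inner membrane, held 5.62, 2.62 and 8.80 FPKM and 48.0, 31.3 and 42.1 FPKM (2.73 ± 0.49, adjusted p = 9.97e-05). In vitrified 4-cells MRPL45 was listed at 3.62, 0.0001 and 4.57 FPKM, the only gene of the family with a median of at least 1 FPKM that was listed at 0.0001 in any library.

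Of the small subunit 9 genes rose into fresh blastocysts. MRPS6, whose bacterial counterpart pairs with the S18 protein, went from 6.21, 8.53 and 29.1 FPKM in fresh 4-cells to 245, 209 and 217 FPKM in fresh blastocysts (4.14 ± 0.62, adjusted p = 1.46e-05). The other small-subunit genes that rose were MRPS7, MRPS11, MRPS12, MRPS15, MRPS18B, MRPS25, MRPS28 and MRPS34, with differences from 1.47 to 4.02. MRPS12 was low in fresh 2-cells (0.729, 1.22 and 0.924 FPKM) and reached 59.5, 78.5 and 61.4 FPKM in fresh blastocysts.

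The 4 genes that fell between fresh 4-cells and fresh blastocysts included 3 of the small subunit. MRPS14, a protein of the head of the small subunit, was the most abundant small-subunit gene among the 63 in fresh 2-cells. It held 160.5, 295 and 389 FPKM there. It held 68.5, 116 and 129 FPKM in fresh 4-cells and 22.9, 27.5 and 25.4 FPKM in fresh blastocysts, a difference of -1.96 ± 0.56, adjusted p = 0.00459. MRPS10, another protein of the head, went from 110.4, 109 and 240.0 FPKM to 41.0, 37.4 and 39.9 FPKM (-1.83 ± 0.36, adjusted p = 0.000208). MRPS22, a mitochondrial-specific protein linked to inherited cardiomyopathy in humans, went from 31.6, 26.1 and 29.0 FPKM to 13.0, 11.0 and 12.3 FPKM (-1.18 ± 0.27, adjusted p = 0.000871). The fourth was MRPL18 of the central protuberance, with 72.5, 76.1 and 102 FPKM and 30.9, 38.9 and 35.4 FPKM (-1.22 ± 0.25, adjusted p = 0.000401). In all 4 genes the groups did not overlap, as in 8 of the 63 genes downward (47.4% of all genes) and 38 upward (28.8%). Under scaling by the median ratio MRPS10 was the only one of the 4 still called lower (-1.01), and the differences of MRPS14, MRPL18 and MRPS22 were -1.15, -0.41 and -0.40.

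Of the 63 genes 21 were called in neither fresh step with FPKM as deposited, and several of these calls depend on the scaling. In the second step MRPL4, MRPL35, MRPL47 and MRPL58 were called higher under both other scalings. MRPS18C, MRPS23, MRPS24, MRPS26 and MRPS36 were called higher only after scaling by the median ratio. After quantile normalization MRPL11 (-1.02) and MRPL13 (-1.25) were called lower. Among the 21, MRPL43 held 78.8, 74.0 and 115 FPKM in fresh 4-cells and 88.4, 77.2 and 85.0 FPKM in fresh blastocysts, and MRPS33 held 51.2, 42.6 and 43.6 and 40.0, 43.1 and 43.8 FPKM. MRPS9 held 9.57, 10.01 and 10.22 and 9.46, 9.81 and 10.1 FPKM. These 3 genes were picked after their values had been seen, and their differences in this step were -0.07 ± 0.24, -0.11 ± 0.24 and -0.02 ± 0.25. Sorted by their mean in fresh 2-cells, 17 of the lowest 21 genes, 14 of the middle 21 and 3 of the highest 21 were higher in fresh blastocysts than in fresh 4-cells. The medians of these 3 sets were 2.80, 12.8 and 68.0 FPKM in fresh 2-cells and 42.3, 38.0 and 83.5 FPKM in fresh blastocysts. Fresh 2-cells and fresh 4-cells had much the same order (rho = 0.87), so genes sorted low also began this step low. The counts therefore follow in part from the sort, and genes outside the family were not sorted in this way.

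In vitrified embryos too, most of the family rose into the blastocyst. Between vitrified 4-cells and vitrified blastocysts 36 of the 63 genes were called, 35 higher and 1 lower, against 58.6% of all genes (24.6% higher and 33.9% lower), and the median difference was 1.54 for the 63 genes and -0.38 for all genes. Of the genes that rose, 32 rose in both treatments, which is 32 of 34 in fresh and 32 of 35 in vitrified embryos, and none was called in opposite directions. The gene that fell was MRPL16, from 115, 154 and 185 FPKM to 71.9, 36.1 and 44.8 FPKM (-1.59 ± 0.38, adjusted p = 0.00129), whereas in fresh embryos MRPL16 had fallen in the earlier step. Between vitrified 2-cells and vitrified 4-cells 14 of the 63 genes were called, 5 higher and 9 lower, against 19.9% of all genes (9.08% higher and 10.9% lower). MRPL17 and MRPS18A rose and MRPL3, MRPL15 and MRPL34 fell in both treatments, and MRPS14 (-2.09 ± 0.56, adjusted p = 0.0123) and MRPL45 (-1.79 ± 0.49, adjusted p = 0.0150) were among those that fell in vitrified embryos. Of these 14, 5 higher and 7 lower were called under both other scalings. After scaling by the median ratio the calls of MRPL15 (-0.95) and MRPS18B (-0.96) were lost and MRPL36 (1.17) and MRPL51 (1.04) were called higher, which gave 7 higher and 7 lower. Without vitrified 4-cells replicate 2, the library in which MRPL45 was listed at 0.0001, 22 genes were called in this step, 12 of them higher. In that fit 29.3% of all genes were called.

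The 3 genes of the MRPS18 family, which descend from 1 bacterial gene, are given here by stage. MRPS18A, the copy in the large subunit, held 5.04, 8.29 and 3.49 FPKM in fresh 2-cells, 35.6, 22.7 and 64.6 FPKM in fresh 4-cells and 65.1, 77.2 and 72.9 FPKM in fresh blastocysts. It rose in the first step (2.61 ± 0.53, adjusted p = 0.00595) and was not called in the second (0.92 ± 0.53, adjusted p = 0.132). MRPS18B, a copy in the small subunit, held 53.9, 39.5 and 62.6 FPKM, 42.7, 47.6 and 54.2 FPKM and 115, 143 and 149 FPKM, so that its rise came in the second step (1.47 ± 0.25, adjusted p = 5.06e-05). MRPS18C, the copy that replaces the bacterial protein in place, held 2.86, 3.41 and 2.12 FPKM, 9.11, 8.51 and 30.8 FPKM and 21.5, 24.8 and 25.3 FPKM, and neither fresh step was called. Its first step was called with the replicate block (1.95, adjusted p = 0.0404), and its second after scaling by the median ratio (1.56). MRPS30, the other large-subunit protein with a small-subunit symbol, held 30.7, 13.8 and 17.2, 17.8, 22.4 and 20.6 and 12.5, 8.95 and 13.3 FPKM across the 3 fresh stages, and MRPS36 held 72.6, 130.5 and 96.6, 51.1, 70.4 and 94.6 and 80.5, 99.9 and 93.3 FPKM. Neither gene was called in any stage step of either treatment with FPKM as deposited. After scaling by the median ratio MRPS36 was called higher in blastocysts than in 4-cells, with differences of 1.19 in fresh (0.38 as deposited) and 1.15 in vitrified embryos (0.70 as deposited).

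Other genes of mitochondrial translation did not all move with the 63. Of the 11 rows described as mitochondrial ribosomal proteins without a symbol, 4 were higher and 1 lower in the first fresh step. In the second 6 were higher and 1 lower, with a median difference of 1.29. Over all genes tested, 4.81% were higher and 3.71% lower in the first fresh step, and 23.9% and 38.6% in the second. The row described as mitochondrial ribosomal protein S17 was the most abundant of the 11 in fresh 2-cells, with a mean of 843 FPKM, and fell to 314 and then 71.8 FPKM. Of 5 further small-subunit or large-subunit proteins that lack the family symbol, CHCHD1 and GADD45GIP1 rose in the second fresh step (2.00 ± 0.34, adjusted p = 4.98e-05 and 3.89 ± 0.27, adjusted p = 2.21e-09). Of 22 tested genes for ribosome assembly and ribosomal RNA modification, 8 were higher and 3 lower in this step. Among them MPV17L2, an assembly factor in human cells, went from a mean of 1.23 to 67.1 FPKM (4.96 ± 0.44, adjusted p = 3.40e-08), and METTL15, which methylates the small-subunit RNA, went from 12.4 to 2.49 FPKM (-1.93 ± 0.49, adjusted p = 0.00210).

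Translation factors rose in 7 and fell in 1 of 15 genes in the second fresh step. In that step 23.9% of all genes tested were higher and 38.6% lower. The mitochondrial elongation factors TUFM and TSFM rose (2.22 ± 0.46, adjusted p = 0.000361 and 3.37 ± 0.66, adjusted p = 0.000212). Of 13 genes for mitochondrial transcription and RNA processing, 3 rose and 4 fell in this step, with a median difference of -0.93. TFAM, which packages mitochondrial DNA and takes part in its transcription, had risen in the first step, from a mean of 3.25 to 65.1 FPKM (4.47 ± 0.57, adjusted p = 0.000346). Of 6 tested regulators of nuclear genes for mitochondria, 5 fell in the second fresh step and none rose. Among those that fell were GABPA (-2.18 ± 0.45, adjusted p = 0.000359) and NRF1 (-1.50 ± 0.42, adjusted p = 0.00389). All these counts are with FPKM as deposited, and the split over all genes in this step depended on the scaling. Whether these falls hold under the other scalings is not given here.

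Genes of the cytosolic ribosome and of the respiratory chain were set beside the family. Of 60 tested cytosolic ribosomal protein genes, 40 were higher and none lower in the first fresh step (median 2.23), in which 5 of the 63 mitochondrial genes were higher. In the second fresh step 57 of these 60 (median 3.32) and 65 of 72 nuclear genes of the respiratory chain (median 3.09) were higher, against 34 of 63 here (median 1.78). The respiratory chain genes had a median of 0.31 in the first step, with 11 of 72 higher and 2 lower. Over all genes tested, 4.81% were higher and 3.71% lower in the first fresh step, and 23.9% and 38.6% in the second. Whether these lists differ from each other was not tested.

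The study's own question was whether vitrifying the zygote changes expression in the embryos that develop from it. For this comparison the threshold of the study was used within each stage, an unadjusted p under 0.05 with a log2 difference beyond 1, on genes that reached 1 FPKM in 3 or more of the 6 libraries, and differences are vitrified minus fresh. In 2-cells none of 57 tested genes was called, against 0.45% of 8449 genes. In 4-cells 1 of 60 was called, against 3.46% of 8769 genes (0.992% higher and 2.46% lower). In blastocysts 1 of 63 was called, against 2.26% of 7833 genes (1.49% higher and 0.766% lower). The median differences of the tested genes of the family were 0.11, -0.08 and 0.00, against -0.05, -0.16 and 0.11 for all genes tested, and no gene of the family passed an adjusted p of 0.05 at any stage. Scaling moved these medians, to -0.01 in 4-cells and -0.13 in blastocysts after quantile normalization and to 0.12 and -0.16 after scaling by the median ratio, and it turned the split over all genes in blastocysts from 117 higher and 60 lower to 54 and 82 and to 53 and 92. In 4-cells the split went from 87 higher and 216 lower to 165 and 129 and to 147 and 136.

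In 2-cells, 4 of the 57 genes had an unadjusted p under 0.05 in limma, against 3.75% of all genes, and the groups of 4 genes did not overlap upward (3.73% of all genes) and of 4 downward (5.72%). MRPL47, the counterpart of the bacterial L29 protein, held 6.12, 7.15 and 9.31 FPKM in fresh and 13.97, 14.4 and 13.9 FPKM in vitrified 2-cells (0.84 ± 0.21, adjusted p = 1.000). MRPL16 held 211, 154 and 166 FPKM in fresh and 110.2, 113 and 119 FPKM in vitrified 2-cells (-0.62 ± 0.18, adjusted p = 1.000). The other 2 were MRPS6 (0.55 ± 0.24) and MRPL10 (0.51 ± 0.21). MRPL10 reached 1 FPKM in the vitrified libraries only, with means of 0.764 FPKM in fresh and 1.51 FPKM in vitrified 2-cells. It passed the filter only because it stood higher there. Its place among these 4 genes and among those without overlap upward therefore follows from the filter in part. The lowest differences after MRPL16 were those of MRPL4 (-0.49 ± 0.38) and MRPL37 (-0.40 ± 0.23). Each of these differences was under 2-fold.

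In 4-cells the gene called was MRPL16, which stood higher in vitrified embryos. MRPL16 held 30.7, 76.3 and 109 FPKM in fresh and 115, 154 and 185 FPKM in vitrified 4-cells, so the groups did not overlap (1.21 ± 0.53, adjusted p = 0.947, unadjusted p = 0.0480). Of the 6 fits that leave out a single library, the call was made in 1, without fresh replicate 3, and the difference was 0.70 to 1.60 over the 6. The replicate number was also tried as a block, because same-numbered 4-cell libraries tended to deviate together. Fresh replicate 2 correlated with vitrified replicate 1 as well (r = 0.23), so the numbers are not known to mark pairs. With this block 2 genes were called, against 5.54% of all genes. They were MRPL16 (unadjusted p = 0.0171) and MRPL45 (log2 difference -1.06, unadjusted p = 0.0444), of which MRPL45 stood lower in vitrified embryos. MRPL45 rests on vitrified replicate 2, where it was listed at 0.0001, and its difference was -0.28 without that library. The next differences were those of MRPS14 (-1.06 ± 0.75) and MRPS10 (-0.90 ± 0.53) downward and of MRPL44 (0.70 ± 1.04) and MRPL4 (0.67 ± 0.57) upward, none of them called. In all, 1 gene stood higher in vitrified 4-cells without overlap (2.81% of all genes) and 5 lower (8.34%). Without vitrified replicate 3, the library that stood apart, 4 of 59 genes were called, against 4.23% of all 8448 genes tested. All 4 were lower in vitrified embryos (MRPS6 at -1.66, MRPL57 at -1.45, MRPL24 at -1.36 and MRPS10 at -1.33), and MRPL16 was not among them.

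In blastocysts the gene called was MRPS10 (ENSSSCG00000001638), which stood higher in vitrified embryos. MRPS10 held 41.0, 37.4 and 39.9 FPKM in fresh and 91.7, 84.1 and 84.4 FPKM in vitrified blastocysts, and every vitrified library was more than 2-fold above every fresh one. The difference was 1.12 ± 0.15, adjusted p = 0.109 and the unadjusted p was 8.11e-05. It was called in all 6 fits that leave out a library, and its difference was 0.97 after quantile normalization and 0.95 after scaling by the median ratio, which is just inside the threshold of 1. MRPS22 held 13.0, 11.0 and 12.3 FPKM in fresh and 26.8, 16.6 and 17.7 FPKM in vitrified blastocysts (0.67 ± 0.22, adjusted p = 0.211). MRPS35, another small-subunit protein particular to mitochondria, held 11.3, 15.05 and 16.4 and 22.1, 20.2 and 25.4 FPKM (0.64 ± 0.20, adjusted p = 0.199). With MRPL39 (0.61 ± 0.17) and MRPS18A (0.39 ± 0.16) these make 5 genes with an unadjusted p under 0.05, against 16.2% of all genes, and all 5 stood higher in vitrified blastocysts without overlap. MRPL39 and MRPS18A were named for this unadjusted p after their values had been seen.

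**Figure D4:**
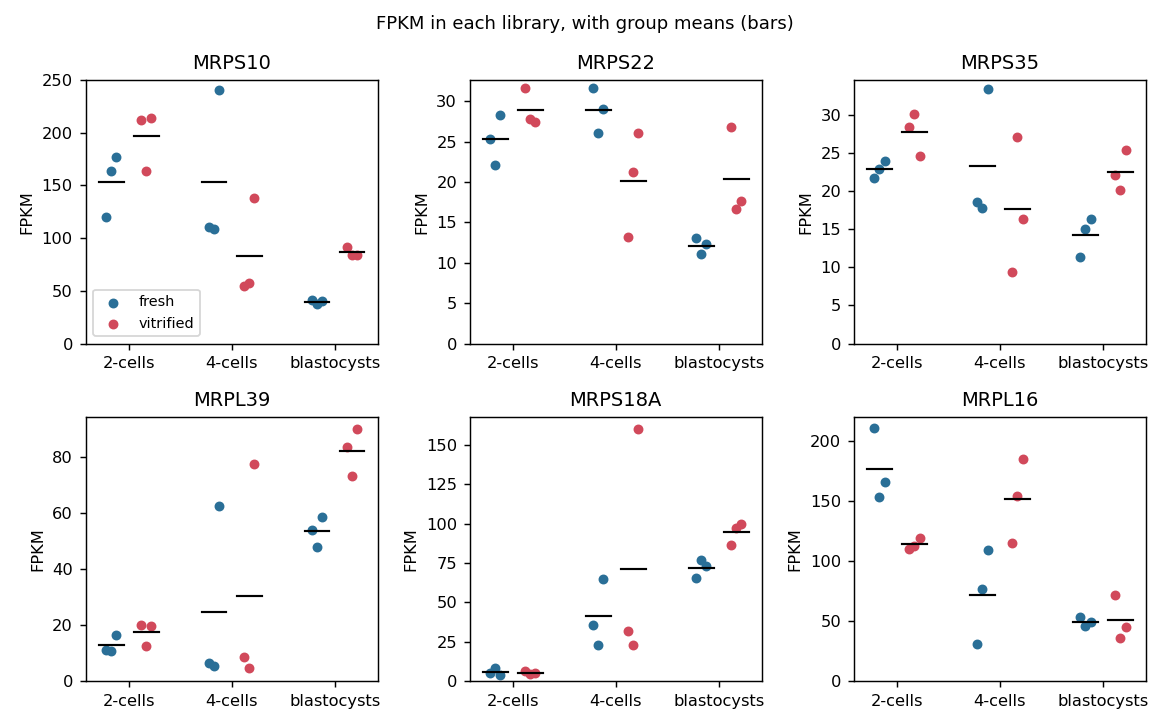
Points are the FPKM of single libraries by stage and treatment (blue for fresh, red for vitrified), and bars are group means, for MRPL16 and for the 5 genes with an unadjusted p under 0.05 between vitrified and fresh blastocysts. MRPS10 lies at 37.4 to 41.0 FPKM in fresh and 84.1 to 91.7 FPKM in vitrified blastocysts, and in 4-cells replicate 3 is the highest point of MRPS10 and MRPL39 in both treatments.

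In blastocysts 9 of the 63 genes stood higher without overlap (17.3% of all genes) and 3 lower (5.27%). The lowest differences were those of MRPL52 (-0.38 ± 0.18), MRPL48 (-0.35 ± 0.21) and MRPS11 (-0.32 ± 0.18), none of them called. Cytosolic ribosomal proteins had a median difference of -0.23, with 47 of 60 below 0, and nuclear respiratory chain genes one of -0.16, with none of either list called. The 6 blastocyst epithelium markers summed to 3569 to 3965 FPKM in fresh and 1965 to 3377 FPKM in vitrified blastocysts. KRT8 and KRT18 make up most of these sums, and 4 of the 6 had a difference below 0 and 2 above. GATA3 (22.3 to 25.1 FPKM in fresh, 30.4 to 31.5 FPKM in vitrified) and TFAP2C (13.7 to 25.5 and 28.9 to 35.2 FPKM) stood higher in every vitrified library, and the part of these markers in the differences was not tested.

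Whether the difference between vitrified and fresh embryos itself differs between stages was tested as an interaction over the 18 libraries. None of the 63 genes passed an adjusted p of 0.05 in limma, either between 4-cells and 2-cells or between blastocysts and 4-cells. Of all 11361 genes tested, 0.0176% and 0.0264% passed. Between 4-cells and 2-cells the largest interactions were those of MRPL16 (1.83 ± 0.53, adjusted p = 0.423) and MRPL45 (-1.36 ± 0.70, adjusted p = 0.693). Between blastocysts and 4-cells they were those of MRPS10 (2.02 ± 0.50, adjusted p = 0.171) and MRPL45 (1.26 ± 0.70, adjusted p = 0.507).

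MRPS10, with the largest interaction, is given at the earlier stages too. In 2-cells it held 119.8, 164 and 177 FPKM in fresh and 212, 164 and 214 FPKM in vitrified embryos, and in 4-cells 110.4, 109 and 240.0 FPKM in fresh and 54.6, 57.3 and 138 FPKM in vitrified embryos, with overlap at both stages. Within the same-numbered pairs of 4-cells, vitrified MRPS10 was lower in 3 of 3, at 0.494, 0.528 and 0.574 times the fresh level, and with the replicate number as a block its difference of -0.90 had an unadjusted p of 0.0413 and an adjusted p of 0.725 and was not called, being within 1. Fresh embryos thus fell from 4-cells to blastocysts (-1.83 ± 0.36, adjusted p = 0.000208), whereas vitrified embryos fell from 2-cells to 4-cells (-1.36 ± 0.36, adjusted p = 0.0115) and were not called in the next step (0.19 ± 0.36, adjusted p = 0.641). The interaction between blastocysts and 4-cells was called without vitrified 4-cells replicate 3 (2.45) and without either replicate 3 of the 4-cells (2.07), and under none of the other alternatives run.

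The family also set replicate 3 of the 4-cells apart from the other 4-cell libraries in both treatments. In 28 of the 60 genes tested, or 46.7%, both replicate 3 libraries lay above all 4 libraries of replicates 1 and 2, and in none did both lie below, whereas over all genes 15.2% lay above and 12.7% below. The 28 genes comprise 20 of the large and 8 of the small subunit, and the ratio of the mean of the replicate 3 libraries to that of the other 4 was 1.37 to 13.3, with a median of 3.93, in genes chosen for standing higher. Over all 60 genes tested the ratio was 0.551 (MRPL34) to 13.3, with a median of 1.82, and it was below 1 in 9. MRPL22, whose bacterial counterpart lines the peptide tunnel, held 69.4, 92.2 and 265 FPKM in fresh and 60.4, 82.4 and 417 FPKM in vitrified 4-cells, in the order of the replicates. MRPS18C held 9.11, 8.51 and 30.8 FPKM in fresh and 10.8, 4.97 and 62.3 FPKM in vitrified 4-cells. Among the tested genes, 19 of the 28 and 12 of the other 32 were higher in fresh blastocysts than in fresh 4-cells.

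**Figure D5:**
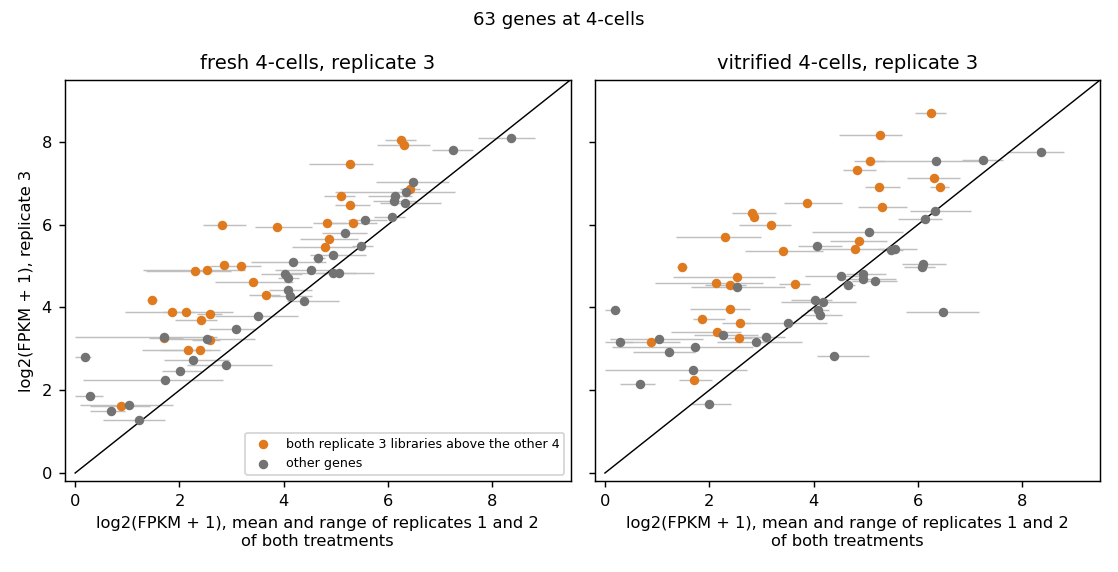
Each point is 1 of the 63 genes, with its level in replicate 3 of the fresh (left) or vitrified (right) 4-cells against the mean of replicates 1 and 2 of both treatments, all as log2(FPKM + 1), grey lines spanning the lowest to the highest of those 4 libraries and the diagonal marking equal levels. The 28 tested genes for which both replicate 3 libraries exceed the other 4 (orange) lie above the diagonal in both panels.

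Cytosolic ribosomal proteins also stood higher in these 2 libraries. They held 2.72% and 3.32% of all FPKM in fresh and vitrified replicate 3, and 1.08% to 1.47% in the other 4-cell libraries. Of the 6 blastocyst epithelium markers TFAP2C stood higher in both, at 53.2 and 174.6 FPKM against 4.32 to 33.4 FPKM in the others, and it makes up nearly all of their sums (54.2 and 176 FPKM against 5.05 to 35.7 FPKM). The rest of the list had no common direction. KRT18 was listed at 0.0001 in all 6 libraries. KRT8 and GATA3 were lower in fresh replicate 3 (0.682 and 0.284 FPKM) than in fresh replicates 1 and 2. In vitrified replicate 3 KRT8 (0.116 FPKM) and GATA2 (0.226 FPKM) were above vitrified replicates 1 and 2, and GATA3 (0.641 FPKM) was below them. All these values are low, so they do not show whether the list as a whole moved. Maternal markers summed to 1282 and 1217 FPKM against 978 to 1594 FPKM. The labels give no batch, date or culture for the replicate numbers, and the part of these markers in the levels of the 63 genes was not tested. Leaving out both libraries, 40 of the 63 genes were higher and 4 lower in fresh blastocysts than in fresh 4-cells.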

How the data were processed

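Cloned pig embryos were sequenced in 18 libraries (6 groups of 3). The deposited tables, 1 per stage, hold the authors' FPKM per library with zeros replaced by 0.0001. According to the methods, the authors amplified cDNA with SMART-Seq v4, used Cutadapt and FastQC on the reads, Bowtie2 and HISAT2 for mapping and StringTie for FPKM. The labels describe a small RNA protocol instead. Versions, genome build and annotation are not given in the sources used here. The tables also hold the authors' fold changes, p-values, q-values and calls, which were not used. Stages were set side by side from separate tables, as one FPKM scale.

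Tests used limma 3.58.1 with a mean-variance trend (R 4.3.3) on log2(FPKM + 1), which understates changes of low genes. Within a stage, genes were tested that reached 1 FPKM in 3 or more of 6 libraries, and for stage steps and interactions in 3 or more of the 18. p-values were adjusted over all genes tested, and the fits were tested on simulated data. Groups follow the labels, and the study's methods name biological replicates without saying what was separate, so p-values measure the spread between these libraries. Same-numbered fresh and vitrified libraries correlated in 4-cells (r = 0.22, 0.37 and 0.42 across genes, after removing group means) and not throughout in 2-cells (0.03, -0.11 and 0.11) or blastocysts (0.25, 0.05 and 0.00). Of the differently numbered pairs, fresh 2 with vitrified 1 reached 0.23 in 4-cells, where the others were -0.41 to -0.03. Fresh 2 with vitrified 3 reached 0.30 in blastocysts. The block was used beside results of 4-cells only, and the replicate numbers are not known to mark pairs. Named genes were those called or with the 3 highest or lowest differences after vitrification, the 4 highest or lowest fresh steps, the 2 largest interactions, the 5 highest and 3 lowest means, those listed at 0.0001 with a median of at least 1 FPKM, and the MRPS18 genes, MRPS30 and MRPS36. Others complete a count of called genes or were chosen after their values were seen. The members, lists and rules were chosen with earlier results of these data known. Alternatives were another pseudocount (0.1), other filters, scalings and fits, and leaving out each library.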

Additional observations from a re-analysis of the deposited data

How the results depend on the processing

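Of the 208 recomputed counts, 185 stayed within 1.5 times the reported count. A count of 0 that stayed 0 was taken as unchanged, as in vitrified against fresh 2-cells and in most fits of the interactions. Stage steps were also refitted without libraries of groups outside the step. The share of unchanged counts is thus no measure of how steady the results are. In vitrified against fresh 4-cells (1 gene called), 0 were called with an adjusted p, a mean of at least 5 FPKM, no filter or a pseudocount of 0.1, 2 with all 18 libraries in a single fit, with the replicate block or without either replicate 3 (added after the data were seen), 4 with array weights, and 0 to 4 when a library was left out. In vitrified against fresh blastocysts (1 called), 0 were called with an adjusted p, quantile normalization or scaling by the median ratio. From fresh 2-cells to 4-cells (9 called), 5 were called with only the 12 libraries of the 2 stages, 15 without either replicate 3, and 4 to 17 when a library was left out. From vitrified 2-cells to 4-cells (14 called) the range was 10 to 22, and for the interaction between blastocysts and 4-cells (0 called) it was 0 to 1, with 1 without either replicate 3. The share of all genes called shifted too. In vitrified against fresh 4-cells it was 4.05% to 7.31% in the fits with 2 or 4 genes called, against 3.46% in the main fit. From fresh 2-cells to 4-cells it was 4.11% to 13.9% in the fits with 4, 5, 15 or 17 called, against 8.52%. In the vitrified step it was 29.3% in the fit with 22 called, against 19.9%. The cause of these shifts was not tested. Steps into blastocysts were steadier, with 35 to 40 (fresh) and 32 to 43 (vitrified) called when a library was left out. Among single genes, MRPL44 in 4-cells (0.70, not called) turned to -0.23 with array weights, and to -0.09 without fresh replicate 1 and -0.32 without vitrified replicate 3, within -0.32 to 1.67 over the libraries left out. The replicate block (pairing by replicate number) moved no other count by over 1.5 times, and in the stage steps it added the calls of MRPS18C and MRPL27 from fresh 2-cells to 4-cells and of MRPL36 (1.11, adjusted p = 0.0339) in the vitrified step. Depth is unknown from FPKM, 3 libraries per group limit every test, and genes near 0 in 2-cells and 4-cells, such as MRPL28 and MRPL12, have differences that depend on the pseudocount.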
